A study of Sus scrofa with 63 samples.

Results

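The genes described here are the interleukins, the tumour necrosis factor (TNF) family and the receptors of both, measured in pig skin after exposure to sulfur mustard, an alkylating agent that blisters skin. They were picked by a rule on names, which was set with earlier results of these data known. A probe set belonged if its only gene symbol began with IL and a digit, TNFSF or TNFRSF, or was TNF, LTA or LTB. IL6 was left out, and so were 2 probe sets that carried a second symbol. This gave 49 probe sets of 41 genes, out of 6765 genes with a single symbol on the array, and each gene was represented by its brightest probe set over 63 arrays. Of the 41 genes, 34 had a mean log2 signal above the lower quartile of all probe sets, 6.44, and the other 7 were too dim for more than a rough value. The antagonist gene IL1RN was not analysed here.

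Interleukins and TNF ligands are the secreted or surface signals by which injured epithelium, resident immune cells and recruited leukocytes address one another. Receptors of the IL-1 family signal through the adaptor MYD88 and the kinase MAP3K7 to the transcription factor NF-kB, and TNF receptors reach the same factor or, where they carry a death domain, the caspase cascade. Most other interleukin receptors are type I or type II cytokine receptors that act through Janus kinases (JAK) and STAT transcription factors, and many of these share the common gamma chain that IL2RG encodes. In skin, keratinocytes hold stores of IL-1 alpha and IL-18 that are released on injury.

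The animals were female Yorkshire crossbred pigs, whose ages the labels do not give, and every group came from depilated skin of the belly. Exposed sites received 400 µL of undiluted sulfur mustard for 8 min, which made lesions 3 cm wide, control sites were unexposed skin of the same animals, and a sham animal was prepared but not exposed. RNA came from 8 mm punch biopsies taken 1, 2, 4, 24, 48, 72, 168, 336 or 514 h after exposure, with 3 exposed, 3 control and 1 sham array at each time. At each time the 3 exposed and 3 control arrays came from 3 animals and the sham array from another animal, and the control sites thus lay on animals that also carried exposed sites. For the last time the sample labels say 514 h and the protocol a slightly shorter time in days.

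Values are log2 signals, a difference of 1 is a doubling, and ± gives the standard error of a difference from the limma fit. Array medians lay between 7.75 and 7.862, and the small number of arrays limits the precision. A gene is said to have risen or fallen only where its Benjamini-Hochberg adjusted p over all 23999 probe sets was below 0.05. The labels do not tie replicate numbers to animals, so p-values measure the spread between these biopsies. A biopsy mixes cell types, so more cells of a type and more RNA per cell cannot be told apart. Skin markers were present in the arrays: over the 24 to 72 h control arrays the mean log2 signal of the 4 measured keratinocyte markers was 11.8 to 12.9.

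The calls on members are given here in order of time, and no test divided the times into phases. In the first hours 2 members rose at 1 h, namely TNF and IL13, then TNF alone at 2 h and TNFRSF12A alone at 4 h. From 24 h to 168 h receptors and IL10 made up most of the calls: at 24, 48, 72 and 168 h the numbers that rose were 12, 9, 13 and 17. At 336 h 4 members rose, and at 514 h TNFRSF17 rose and no other member passed in the fit of all arrays; the settings tried called 0 to 6 members there. Falls were few: IL7 at 4 h, IL18 and IL34 at 24 h, and IL11RA at 336 h.

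Read against all probe sets, the balance of the calls leaned towards rises. At 24 h 29.3% of members rose against 14.4% of all probe sets, while 4.88% fell against 12.7%. At 72 h 31.7% of members rose against 5.4% of all probe sets, and at 168 h 41.5% against 9.87%. At 48 h the rises were 22% against 5.84%, at 336 h 9.76% against 2.38%, and at 514 h 2.44% against 3.7%. In the first hours 0.413%, 0.338% and 1.11% of all probe sets rose at 1, 2 and 4 h, beside the 2, 1 and 1 members. Falls over all probe sets made up 0.788%, 0.0542% and 0.342% at 1, 2 and 4 h, then 4.11%, 4.25% and 8.06% at 48, 72 and 168 h, and 1.66% and 2.13% at 336 and 514 h. No test compares the family with other genes, and these shares describe the counts only. Members are the brightest probe set of each gene, while all probe sets include dim, unnamed and repeated ones, so the shares are of unlike sets.

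Averaged over windows of 3 times (9 exposed and 9 control arrays each), 3 members rose at 1 to 4 h, 14 at 24 to 72 h and 20 at 168 to 514 h, while 2 fell in each of the later windows. The matching shares of all probe sets were 2.07%, 18.2% and 12% for rises and 3.41%, 16.9% and 9.88% for falls. The change itself differed between the first and second windows in 15 members, or 36.6% against 16.5% of all probe sets, and between the second and the last in 4, or 9.76% against 8.45%. The median member change was 0.00 at 1 to 4 h, 0.08 at 24 to 72 h and 0.23 at 168 to 514 h, beside medians of -0.01, 0.00 and 0.00 over all probe sets. Of the 14 genes that rose at 24 to 72 h, 12 also rose at 168 to 514 h, that is 12 of 20: IL10, IL10RB, IL18BP, IL1B, IL27RA, IL2RG, IL4R, TNFRSF12A, TNFRSF1A, TNFRSF1B, TNFRSF21 and TNFSF13. TNF and IL13 rose at 1 to 4 h and at 168 to 514 h. Of the 22 calls of the late window 10 held without the 168 h arrays, 15 without the 336 h arrays and 17 without the 514 h arrays, each of these fits averaging 2 times in place of 3.

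**Figure D1:**
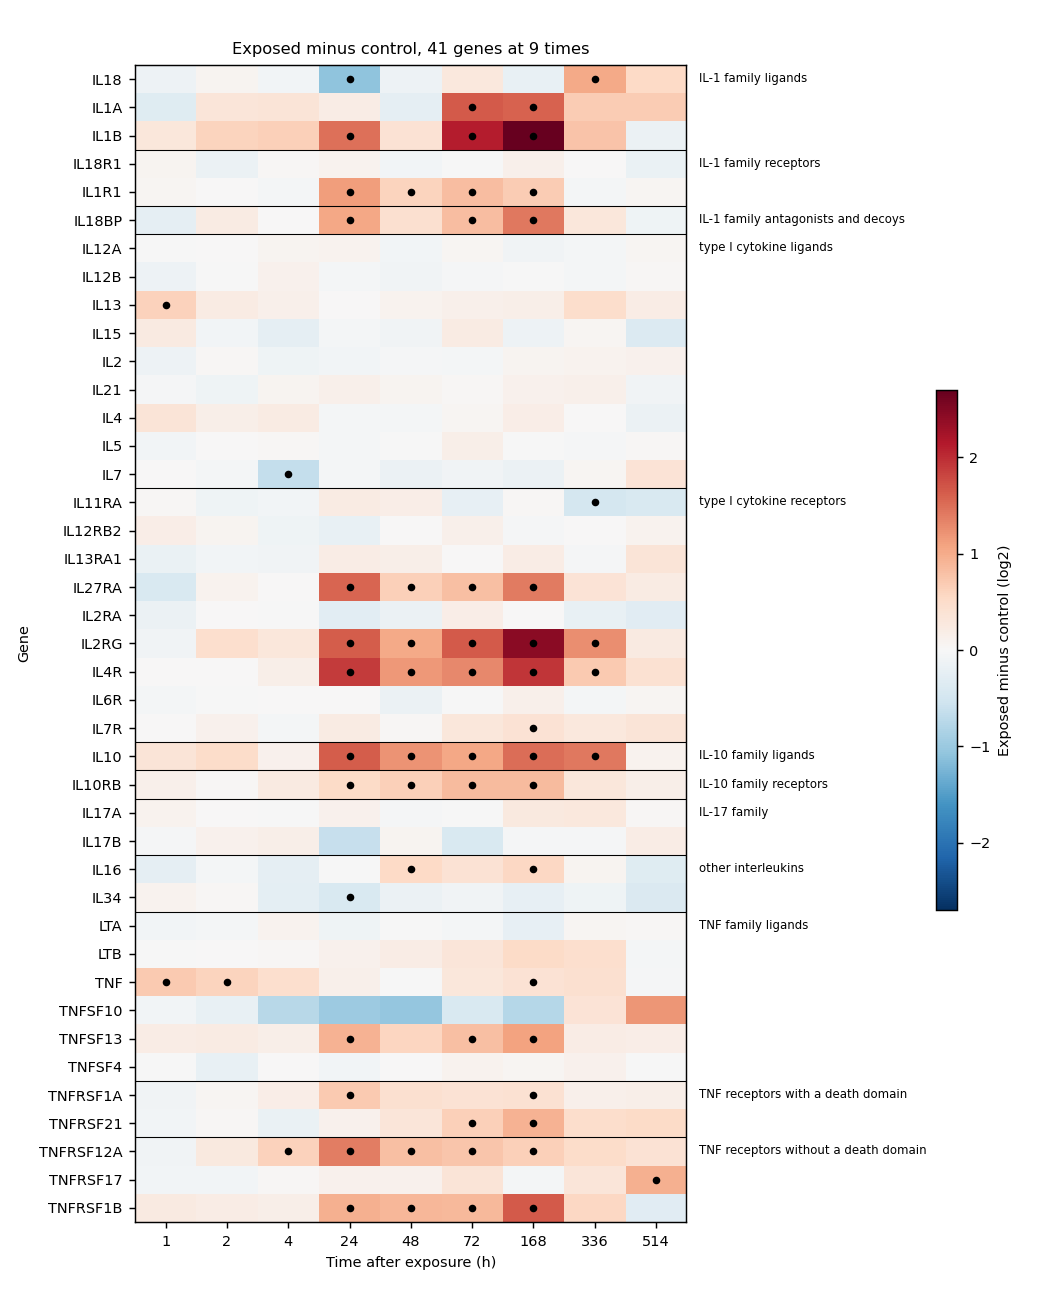
Difference in mean log2 signal, exposed minus control, for each of the 41 genes (rows, grouped by role) at each of the 9 times (columns), with 3 exposed and 3 control arrays at each time; red is higher and blue lower in exposed skin, and marked cells have an adjusted p below 0.05. Marked cells lie mostly between 24 and 168 h in receptor genes and IL10, while TNF is marked at 1, 2 and 168 h.

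**Figure D2:**
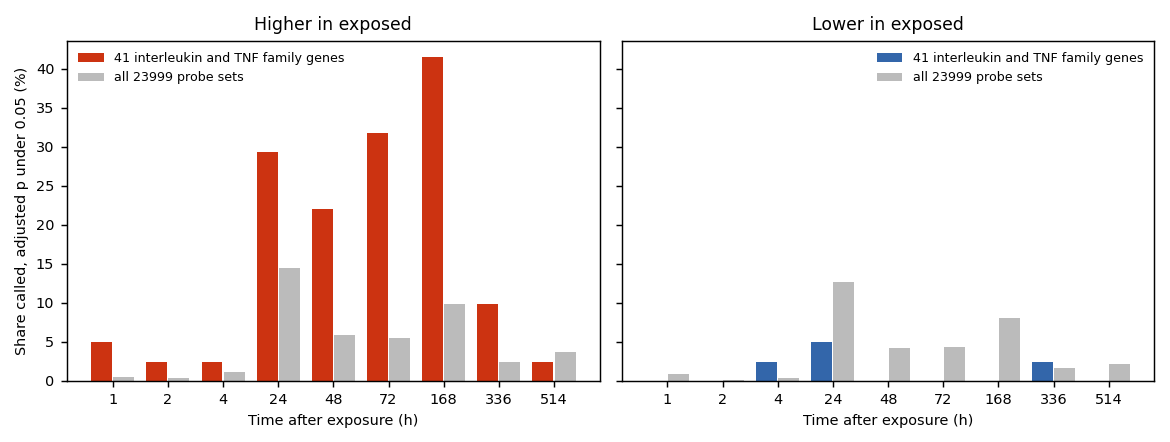
Percent of the 41 members and of all 23999 probe sets that rose or fell at each time, at an adjusted p below 0.05. At 168 h 41.5% of members rose against 9.87% of all probe sets, and falls among members stay at 2 genes or fewer at every time.

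Other features of the tissue moved in the later windows. Among all probe sets 18.2% rose and 16.9% fell at 24 to 72 h, and 12% rose and 9.88% fell at 168 to 514 h. Of 4 measured neutrophil markers 3 rose in both later windows, and their mean log2 signal was 7.67 to 9.31 in exposed and 6.53 to 7.85 in control arrays at 24 to 72 h, and 8.04 to 9.80 against 6.70 to 8.14 at 168 to 514 h. Of 5 measured macrophage markers 3 rose at 24 to 72 h, where exposed arrays lay at 10.1 to 10.9 and control arrays at 9.11 to 10.1, and 4 rose at 168 to 514 h. T cell markers rose in 1 of 8 in each later window, and the ranges of their mean overlapped. Dendritic and Langerhans cell markers rose in 2 of 2 at 24 to 72 h and in 1 of 2 at 168 to 514 h. Endothelial markers rose in 1 of 5 in each later window, and 1 of 5 fell at 24 to 72 h. Fibroblast markers fell in 2 of 4 in each later window, and adipocyte markers in 2 of 3 at 168 to 514 h only. B cell, NK cell, mast cell and melanocyte markers did not pass in these windows. Of the 4 measured keratinocyte markers, the differentiation keratin genes KRT1, KRT2 and KRT10 fell at 24, 48, 72 and 168 h and in both later windows. At 24 to 72 h the mean of the 4 markers was 9.83 to 11.7 in exposed and 11.8 to 12.9 in control arrays, and KRT1 fell by 2.25 ± 0.16 on the log2 scale. At 168 h, the time with the most calls on members, the mean was 8.98 to 9.84 against 12.9 to 13.1, with a median change of -4.38. At 514 h it was 12.9 to 13.5 against 12.7 to 12.9, and IVL, a cornified envelope gene, rose there by 1.99 and over 168 to 514 h by 0.93. The mean of the 8 measured skeletal muscle genes had a median of 7.14 in exposed and 12.1 in control arrays at 168 to 514 h, although sham arrays then had a median of 7.20. The part of these cell types in the members' changes was not tested; with the muscle mean as a covariate 118 of the 124 calls on members held.

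TNF, the founding ligand of its family, rose at 1 h, the first time sampled, as IL13 also did. At 1 h its log2 signal was 7.46, 7.50 and 7.31 in the control arrays and 8.30, 8.07 and 8.02 in the exposed arrays, so the groups did not overlap. The rise was 0.70 ± 0.13, or 1.63-fold (adjusted p = 0.00241). At 2 h control arrays read 7.24, 7.49 and 7.25 and exposed arrays 7.80, 8.11 and 7.88, a rise of 0.60 ± 0.13 (adjusted p = 0.0156). At 4 h all 3 exposed arrays, at 7.70, 7.75 and 7.75, again lay above all 3 control arrays, but the difference of 0.46 did not pass the threshold. Over 1 to 4 h TNF rose by 0.59 ± 0.08 (adjusted p = 7.17e-07), and this call held in every alternative tried.

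After the first hours TNF returned towards its control level. Its change at 24 to 72 h was 0.15 and did not pass, and the difference between that window and the first was itself past the threshold (-0.44 ± 0.11, adjusted p = 0.00314). At 168 h it rose again by 0.39 ± 0.13 (adjusted p = 0.0338), with exposed arrays at 8.12, 7.80 and 7.74 just above control arrays at 7.17, 7.72 and 7.61. That call ended without exposed replicate 1 (0.27) or control replicate 1 (0.22). At 2 h the call ended without control replicate 1 (0.56), control replicate 3 (0.56) or exposed replicate 2 (0.51). At 1, 2 and 168 h it also ended where the arrays of that time were fitted alone (adjusted p of 0.149, 0.435 and 0.203 in that order). At 336 h TNF differed by 0.42, which did not pass. Over 168 to 514 h it rose by 0.26, a call that ended in 2 of the 30 refits tried.

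LTA and LTB, which encode the lymphotoxins and sit beside TNF with no coding gene between them in the RefSeq annotation of the Sscrofa11.1 assembly, did not share the early rise. LTA did not pass at any time or window. LTB differed by 0.01 at 1 to 4 h, which did not pass. At 168 h its exposed arrays read 8.93, 8.14 and 8.44 and its control arrays 7.98, 7.90 and 8.06, a difference of 0.52 that did not pass. Over 168 to 514 h LTB rose by 0.31 ± 0.11 (adjusted p = 0.0422), a call that ended in 18 of the 30 refits tried, among them 11 that left out 1 array and those without the 168 h (0.20) or the 336 h arrays (0.23).

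TNFSF13, a ligand that sustains B cells and plasma cells, rose by 0.93 ± 0.23 at 24 h, by 0.81 ± 0.23 at 72 h and by 1.10 ± 0.23 at 168 h. At 168 h its control arrays read 7.87, 7.49 and 8.10 and its exposed arrays 8.99, 8.65 and 9.11, and the groups did not overlap. A second probe set of this gene changed by 0.16 at 24 to 72 h, which did not pass, where the probe set used rose by 0.78 ± 0.14. At single times the second one changed by -0.06 at 24 h, without passing, and rose by 0.39 at 72 h and by 0.34 at 168 h. The 72 h call ended without control replicate 1 (0.81, adjusted p = 0.0524), control replicate 3 (0.68) or exposed replicate 2 (0.60).

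TNFSF10, the death ligand TRAIL, moved the other way in the middle window. It fell by 0.81 ± 0.26 over 24 to 72 h (adjusted p = 0.014), although no single time passed. At 24 h its exposed arrays read 6.03, 5.72 and 6.12, all below control arrays at 6.70, 7.15 and 6.97. At 48 h the control arrays themselves were spread from 6.51 to 8.76, so the groups overlapped. At 514 h exposed arrays, at 7.56, 8.35 and 8.02, lay above control arrays at 6.86, 6.28 and 7.25, a difference of 1.18 ± 0.46 that did not pass (adjusted p = 0.126). The fall ended with sham arrays as the control (-0.51), without the 24 h arrays (-0.73) and without the 48 h arrays (-0.69). TNFSF4, the costimulatory ligand OX40L, did not pass at any time or window.

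**Figure D3:**
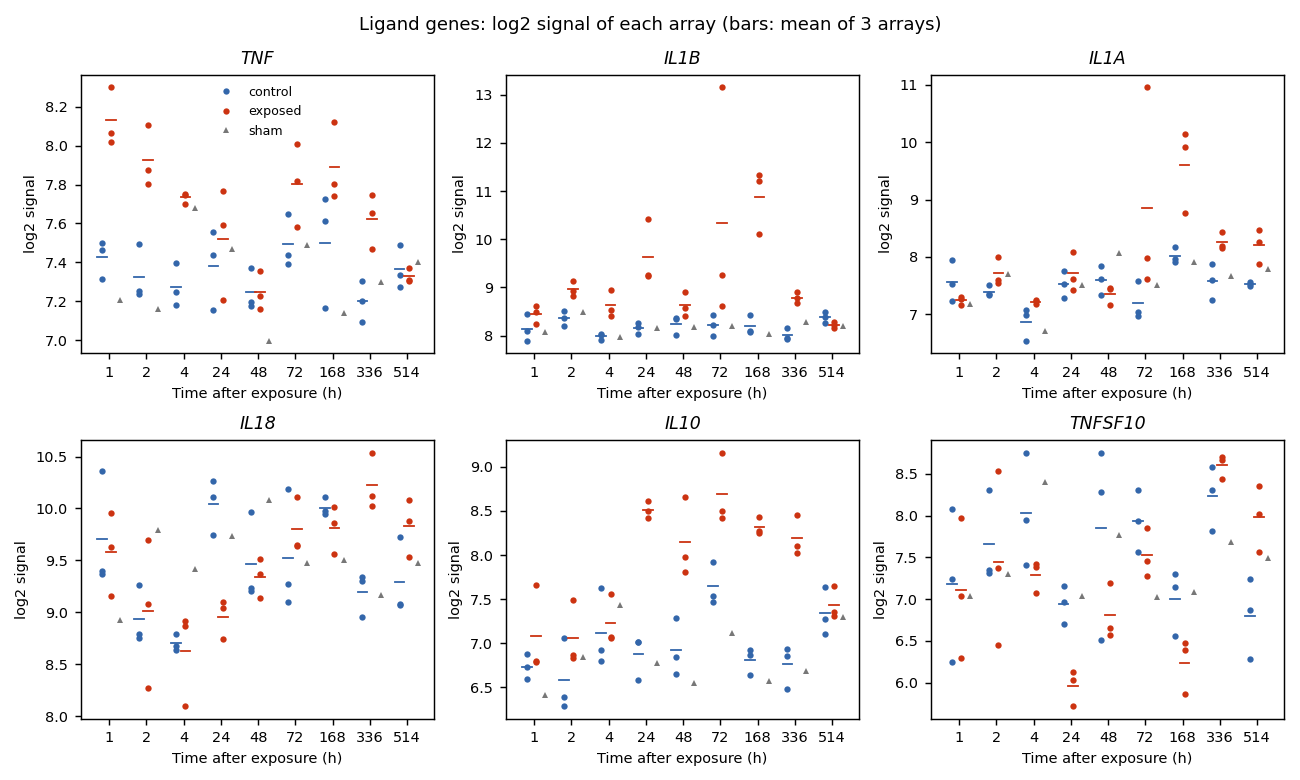
Log2 signal of TNF, IL1B, IL1A, IL18, IL10 and TNFSF10 on each array, by time after exposure in h; points are single arrays (blue control, red exposed, grey sham) and bars are means of 3 arrays. Exposed TNF lies above control at 1, 2 and 4 h, IL10 from 24 to 336 h, and a single exposed array at 72 h reads 13.16 for IL1B and 10.96 for IL1A.

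All 5 TNF receptor genes rose at some time, TNFRSF12A earliest, where 41.6% of all probe sets passed, up or down, at 1 or more times. TNFRSF12A encodes the receptor of the cytokine TWEAK, an injury-induced receptor without a death domain. At 4 h control arrays read 10.00, 9.83 and 10.01 and exposed arrays 10.62, 10.64 and 10.45, a rise of 0.62 ± 0.16 (adjusted p = 0.0232). At 24 h exposed arrays reached 11.66, 11.46 and 11.53 against 10.32, 10.40 and 9.79, its largest rise at 1.38 ± 0.16 or 2.60-fold (adjusted p = 9.05e-09). At 48, 72 and 168 h it rose by 0.82, 0.75 and 0.64, each time with no overlap. The change over 168 to 514 h was smaller than that over 24 to 72 h by 0.48 ± 0.13 (adjusted p = 0.0136).

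The 4 h call of TNFRSF12A ended without control replicate 2 (0.57), control replicate 3 (0.66), exposed replicate 1 (0.60) or exposed replicate 2 (0.59), and with the 6 arrays of that time fitted alone (adjusted p = 0.108). A second probe set of the gene rose at 4 h as well, by 1.09 (adjusted p = 0.0233). At 24, 48, 72 and 168 h it rose by 1.85, 1.23, 1.06 and 1.06. Over 1 to 4 h it rose by 0.59 ± 0.16 (adjusted p = 0.0156), where the brighter one had 0.26 and did not pass. The probe sets thus differ on whether the first window as a whole was called. They also differ at 514 h, where the second rose by 1.06 (adjusted p = 0.0137) and the brighter one had 0.39 (adjusted p = 0.137), and on the fading of the change, as the late minus middle difference of the second, -0.44, did not pass (adjusted p = 0.235). The calls of the brighter one at 24, 48, 72 and 168 h held in every alternative tried.

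TNFRSF1B and TNFRSF1A encode the receptors of TNF itself, the second with a death domain. TNFRSF1B rose by 0.95, 0.89 and 0.87 at 24, 48 and 72 h, and by 1.65 ± 0.23 at 168 h, the last from control arrays at 10.12, 9.77 and 10.05 to exposed arrays at 11.72, 11.95 and 11.21. TNFRSF1A rose less, by 0.71 ± 0.15 at 24 h (control 9.93, 9.95 and 10.31, exposed 10.71, 10.65 and 10.97) and by 0.41 ± 0.15 at 168 h. In both genes the exposed arrays lay above all control arrays at each of these times. At 514 h the TNFRSF1B groups overlapped, and its control arrays spread from 10.49 to 11.45. The TNFRSF1B call ended without exposed replicate 3 at 72 h (0.54) and without control replicate 2 at 48 h (0.79). The TNFRSF1A call at 168 h ended in 5 of the 6 fits that left out 1 array, all but the one without exposed replicate 3, with values of 0.31 to 0.47.

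TNFRSF21 encodes death receptor 6. It rose late, by 0.65 ± 0.17 at 72 h and 0.95 ± 0.17 at 168 h, where exposed arrays read 10.45, 10.57 and 10.31 and control arrays 9.78, 9.34 and 9.36. Its change over 168 to 514 h was 0.65 ± 0.10 (adjusted p = 3.85e-06). The 72 h call ended without exposed replicate 3 (0.59) or control replicate 3 (0.52).

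TNFRSF17, the plasma cell receptor BCMA for TNFSF13, rose at 514 h, where no other member passed in the fit of all arrays on the probe sets used. Control arrays then read 6.49, 7.08 and 6.70 and exposed arrays 7.51, 8.09 and 7.58, a rise of 0.97 ± 0.20 or 1.95-fold (adjusted p = 0.00186). At 336 h exposed arrays, at 7.03, 7.43 and 7.14, also lay above control arrays at 6.87, 6.92 and 6.79, without passing. The 514 h call held in all 6 fits that left out 1 of its arrays and ended with the single sham array as the control (0.86, adjusted p = 0.148). Without the 514 h arrays the late window change was 0.14 and did not pass. The single measured B cell marker did not pass in that window, and its change was 0.17.

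**Figure D4:**
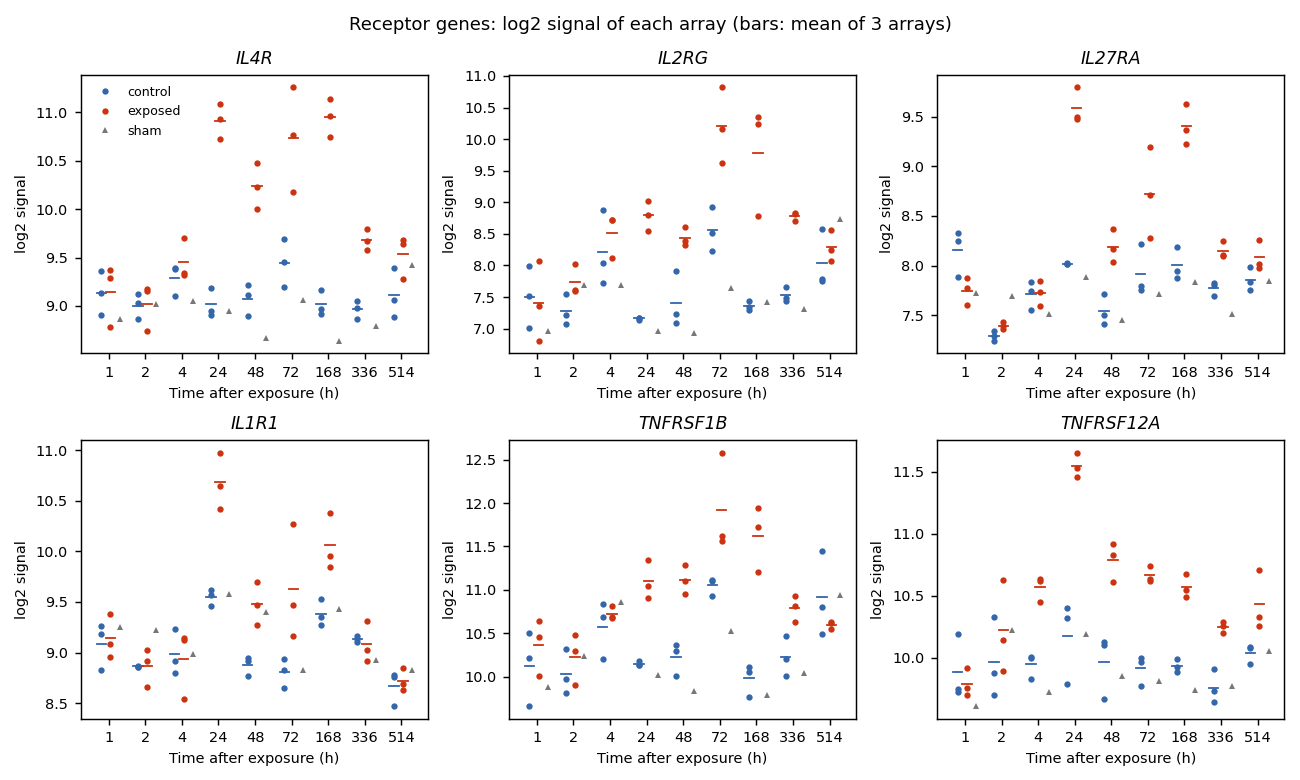
Log2 signal of the receptor genes IL4R, IL2RG, IL27RA, IL1R1, TNFRSF1B and TNFRSF12A on each array, by time after exposure in h; points are single arrays (blue control, red exposed, grey sham) and bars are means of 3 arrays. Exposed arrays lie above control arrays at 24, 48, 72 and 168 h in all 6 genes, and the means lie closer together at 514 h than at 168 h.

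Within the IL-1 family, IL1B, IL1R1 and IL18BP first rose at 24 h and IL1A at 72 h. At 48 h the changes of IL1B, 0.39, and of IL18BP, 0.44, did not pass. The values of the ligand genes varied widely between biopsies. IL1B rose by 1.49 ± 0.50 at 24 h (adjusted p = 0.024), 2.13 ± 0.50 at 72 h (adjusted p = 0.00385) and 2.68 ± 0.50 at 168 h (adjusted p = 0.000131). The last, 6.41-fold, was the largest change of any member at any time. At 168 h control arrays read 8.43, 8.08 and 8.09 and exposed arrays 11.33, 11.22 and 10.10. All 3 exposed arrays were thus high, with replicate 3 lowest. At 336 h exposed arrays still lay above control arrays (8.91, 8.67 and 8.77 against 8.16, 7.95 and 7.92) without passing, and at 514 h the groups overlapped.

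At 72 h the rise of IL1B rested on a single biopsy. Exposed arrays read 9.26, 8.62 and 13.16 against 8.22, 7.99 and 8.43 in controls. Without exposed replicate 3 the change was 0.72 and the call ended. The 24 h arrays read 9.23, 10.41 and 9.26 against 8.25, 8.17 and 8.03, and that call ended without exposed replicate 2 (1.10), control replicate 2 (1.49, adjusted p = 0.0503) or control replicate 3 (1.43). Over 24 to 72 h IL1B rose by 1.33 ± 0.29, or by 0.86 without that 72 h biopsy, and remained past the threshold.

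IL1B needs a further caution. The RefSeq annotation holds a second porcine copy, IL1B2, and the array's probe sets cannot be assumed to separate the copies. The dimmer IL1B probe set rose by 0.87 at 24 to 72 h and passed at 72 h (1.79, adjusted p = 0.00836) and 168 h (1.67, adjusted p = 0.0086), but not at 24 h (0.56) or over 168 to 514 h (0.66).

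IL1A, the alarm cytokine held in keratinocytes, lies next to IL1B in the Sscrofa11.1 annotation. It rose by 1.65 ± 0.41 at 72 h and by 1.59 ± 0.41 at 168 h. The same biopsy decided the 72 h value: exposed arrays read 7.99, 7.62 and 10.96 against 7.58, 7.04 and 6.98, and without replicate 3 the change was 0.60 and did not pass. At 168 h exposed arrays at 10.15, 9.91 and 8.76 all lay above control arrays at 7.91, 8.17 and 7.97. Exposed IL1A also stayed above control without passing at 336 h (0.69) and at 514 h (0.68), where exposed arrays read 7.88, 8.47 and 8.27 and control arrays 7.56, 7.49 and 7.53. Over 168 to 514 h it rose by 0.99 ± 0.23 (adjusted p = 0.00157).

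The 72 h biopsy that stood out carried the highest pustular epidermitis score of its group, 4, where the other exposed biopsies at that time scored 3 and 0. Its part in the result was not tested. Without it, 5 members passed at 72 h in place of 13, and the calls of IL10, IL10RB, IL18BP, IL1R1, TNFRSF1B and TNFRSF21 at that time ended beside those of IL1A and IL1B.

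IL18, a ligand that caspase-1 activates, was the only member with calls in both directions. At 24 h exposed arrays at 8.74, 9.04 and 9.10 lay below control arrays at 9.74, 10.11 and 10.26, a fall of 1.08 ± 0.29 on the log2 scale (adjusted p = 0.00385). At 336 h exposed arrays at 10.12, 10.54 and 10.03 lay above control arrays at 8.96, 9.34 and 9.30, a rise of 1.03 ± 0.29 (adjusted p = 0.0315). The late and middle windows differed by 0.77 ± 0.24 (adjusted p = 0.0347). The 336 h call ended in 5 of 6 fits that left out 1 array, all but the one without exposed replicate 3, with values of 0.87 to 1.10, and the 24 h call ended with the single sham array as the control (-0.78). The late window rise of 0.46 ended without the 336 h arrays (0.17).

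IL18BP encodes the secreted protein that captures IL-18. It rose by 1.05 ± 0.23 at 24 h, the time of the IL18 fall, with exposed arrays at 9.85, 10.24 and 9.99 and control arrays at 8.81, 8.93 and 9.19. It rose by 1.43 ± 0.23 at 168 h (adjusted p = 1.26e-05). Its 72 h call, 0.83, ended without exposed replicate 3 (0.45) or control replicate 3 (0.66).

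IL1R1, the signalling receptor for IL-1, rose most at 24 h, by 1.13 ± 0.18 or 2.19-fold (adjusted p = 7.52e-06). Exposed arrays then read 10.98, 10.65 and 10.42 and control arrays 9.56, 9.46 and 9.62. Its rises at 48, 72 and 168 h were 0.60, 0.83 and 0.68. The change faded afterwards: over 168 to 514 h it was 0.23 and did not pass, and the difference from the middle window was -0.63 ± 0.15 (adjusted p = 0.00582). Its dimmer probe set did not follow, with 0.11 over 24 to 72 h. The 48 h call ended in 5 of the 6 fits without 1 array, with values of 0.49 to 0.64, all but the one without exposed replicate 2, and the 168 h call ended without exposed replicate 1 (0.52). IL18R1, the receptor chain for IL-18, did not pass at any time or window.

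IL10, the cytokine that restrains macrophage and T cell responses, rose at more single times than any other ligand gene. At 24 h exposed arrays read 8.61, 8.42 and 8.51 against 7.02, 7.02 and 6.59 in controls, a rise of 1.64 ± 0.24 or 3.11-fold (adjusted p = 1.59e-06). At 48, 72, 168 and 336 h it rose by 1.22, 1.05, 1.51 and 1.43, with a standard error of 0.24, and in each case all exposed arrays lay above all control arrays. At 336 h control arrays read 6.86, 6.48 and 6.94 and exposed arrays 8.02, 8.11 and 8.45. By 514 h the groups overlapped and the difference was 0.10.

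The calls of IL10 at 24, 168 and 336 h held in every alternative tried. The 72 h call ended without exposed replicate 3 (0.81), and the 48 h call with the arrays of that time fitted alone (adjusted p = 0.0675). IL10RB, a chain of the IL-10 receptor, rose by 0.52, 0.65, 0.86 and 0.85 at 24, 48, 72 and 168 h, with a standard error of 0.19. At 168 h its control arrays read 7.91, 7.83 and 8.00 and its exposed arrays 8.85, 8.80 and 8.64. Its call ended without control replicate 1 (0.45), control replicate 2 (0.52, adjusted p = 0.0815), exposed replicate 1 (0.53) or exposed replicate 3 (0.41) at 24 h, without control replicate 2 (0.56) or exposed replicate 3 (0.57) at 48 h, and without exposed replicate 3 at 72 h (0.56).

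Of 9 measured ligand genes of type I cytokine receptors, 3 passed at a time or in a window, namely IL13, IL4 and IL7. Only IL13 and IL7 passed at a single time, and 41.6% of all probe sets passed at 1 or more of the 9 times. IL13 and IL4, neighbours in the type 2 cytokine cluster and drivers of allergic responses, rose over 1 to 4 h, by 0.33 ± 0.09 (adjusted p = 0.025) and 0.24 ± 0.06 (adjusted p = 0.0138). At 1 h IL13 read 6.88, 6.89 and 6.71 in controls and 7.54, 7.14 and 7.67 in exposed arrays, a rise of 0.63 ± 0.16. IL4 read 6.60, 6.67 and 6.38 in controls and 6.94, 6.98 and 6.77 in exposed arrays, a difference of 0.34 that did not pass at that time. The mean log2 signals of IL13 and IL4 over all arrays, 6.69 and 6.56, lay little above the lower quartile of 6.44. Neither rise was firm. The window call of IL13 ended without the 1 h arrays (0.18) and that of IL4 without the 1 h (0.19) or the 4 h arrays (0.25), and both ended with sham arrays as the control. The 1 h call of IL13 ended in 5 of 6 fits that left out 1 array, all but the one without exposed replicate 2, with values of 0.51 to 0.66. IL5, of the same cluster, did not pass at any time or window.

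IL13 also rose over 168 to 514 h, by 0.28 ± 0.09, a call that ended without the 336 h arrays (0.18). IL7, the lymphocyte survival factor, fell at 4 h by 0.64 ± 0.14 on the log2 scale (adjusted p = 0.0096). Its exposed arrays read 5.44, 5.41 and 5.39 and its control arrays 5.84, 6.33 and 5.99, all among the dim probe sets. The call ended without control replicate 2 (-0.50) and with the arrays of 4 h fitted alone. IL2, IL12A, IL12B, IL15 and IL21 did not pass at any time or window, and IL2 and IL12A were dim.

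Of 9 measured type I receptor genes, 3 rose at 24 to 72 h, and 4 rose and 1 fell at 168 to 514 h. Among all probe sets 18.2% rose at 24 to 72 h, and 12% rose and 9.88% fell at 168 to 514 h. IL4R encodes the shared receptor chain for IL-4 and IL-13. At 24 h control arrays read 8.95, 8.91 and 9.19 and exposed arrays 10.72, 10.93 and 11.08, a rise of 1.90 ± 0.19 or 3.73-fold (adjusted p = 4.4e-10). At 48, 72, 168 and 336 h its rises were 1.16, 1.29, 1.93 and 0.71, with the same standard error and no overlap between groups. The 4 calls from 24 to 168 h held in every alternative tried. The 336 h call ended without control replicate 1 (0.72, adjusted p = 0.0533), control replicate 3 (0.66), exposed replicate 1 (0.71, adjusted p = 0.0704) or exposed replicate 2 (0.65). A dimmer IL4R probe set rose by 0.43 over 24 to 72 h, by 0.79 at 24 h and by 0.64 at 168 h, but did not pass at 48 h (0.20, adjusted p = 0.358), 72 h (0.29, adjusted p = 0.137) or 336 h (0.16).

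IL2RG encodes the common gamma chain. At 168 h its control arrays read 7.29, 7.34 and 7.43 and its exposed arrays 10.23, 10.35 and 8.78, a rise of 2.43 ± 0.32 or 5.39-fold (adjusted p = 4.6e-07). Its rises at 24, 48, 72 and 336 h were 1.63, 1.03, 1.65 and 1.25. Its level in controls was not even: the median over 9 control arrays was 7.29 in the processing period of the 1, 24 and 168 h arrays, 7.44 in that of 2, 48 and 336 h, and 8.23 in that of 4, 72 and 514 h. Exposed and control arrays of a time shared a period, so the differences above lie within periods. The 48 h call held without control replicate 3 and ended in the other 5 fits without 1 array (0.87 to 1.08), and the 336 h call ended without control replicate 2 (1.20), control replicate 3 (1.23), exposed replicate 1 (1.23) or exposed replicate 2 (1.29).

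IL27RA encodes the receptor chain for IL-27. At 24 h control arrays read 8.02, 8.02 and 8.01 and exposed arrays 9.47, 9.49 and 9.80, a rise of 1.57 ± 0.15 or 2.97-fold (adjusted p = 1.17e-10). The rises at 48, 72 and 168 h were 0.65, 0.80 and 1.40. In the first hours it did not rise, and its window changes differed by 1.10 ± 0.12 between 24 to 72 h and 1 to 4 h (adjusted p = 1.44e-08). At 1 h exposed arrays, at 7.77, 7.61 and 7.87, lay below control arrays at 7.89, 8.33 and 8.24, without passing.

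IL7R, the IL-7 receptor, rose by 0.35 ± 0.08 over 168 to 514 h and this call held in every alternative tried. At 168 h its call of 0.40 rested on exposed replicate 1, at 7.49 where the others read 6.84 and 6.63, and without it the change was 0.15. The 168 h call also ended without control replicate 1 (0.37), control replicate 2 (0.42) or control replicate 3 (0.40, adjusted p = 0.1). IL11RA, the IL-11 receptor, went the other way and fell at 336 h by 0.48 ± 0.13 on the log2 scale (adjusted p = 0.0266). Exposed arrays then read 9.75, 10.06 and 10.28 and control arrays 10.58, 10.32 and 10.64. That call ended without exposed replicate 1 (-0.34), exposed replicate 2 (-0.50), control replicate 1 (-0.45) or control replicate 3 (-0.42). IL2RA, IL6R, IL12RB2 and IL13RA1 did not pass at any time or window.

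The remaining interleukins moved little. IL16, a T cell attractant, rose by 0.54 ± 0.14 at 48 h and 0.56 ± 0.14 at 168 h. Its exposed arrays at 168 h, at 9.12, 8.95 and 9.04, lay above control arrays at 8.48, 8.62 and 8.35. The 48 h call ended without control replicate 2 (0.44) or exposed replicate 3 (0.43). IL34, a second ligand of the macrophage growth factor receptor CSF1R and a product of keratinocytes, fell by 0.42 ± 0.15 at 24 h on the log2 scale (adjusted p = 0.0369). Exposed arrays read 8.36, 8.49 and 8.63 against 8.62, 8.96 and 9.15, an overlap of 1 array. The 24 h call ended without exposed replicate 1 (-0.35), exposed replicate 2 (-0.42, adjusted p = 0.0728), control replicate 2 (-0.39) or control replicate 3 (-0.30).

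Of the IL-17 family, IL17A rose by 0.19 ± 0.06 over 168 to 514 h, on a probe set whose control arrays in that window stayed between 4.48 and 5.04. It is among the dim probe sets, and the call ended without the 168 h (0.15) or the 336 h arrays (0.14). IL17B differed by -0.62 at 24 h, where exposed arrays at 8.84, 8.85 and 8.50 lay below control arrays at 9.22, 9.11 and 9.73, and it narrowly missed the threshold (adjusted p = 0.0521). Of its 2 dimmer probe sets, one fell by 0.93 at 24 h on the log2 scale (adjusted p = 0.00803) and the other changed by -0.07 and did not pass (adjusted p = 0.671). The 3 probe sets thus differ in size and in the call at that time.

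Across the family, 23 of 41 members (56.1%) passed at 1 or more times, against 41.6% of all probe sets, and 18 at none. Here too the brightest probe set of each gene is set beside all probe sets. IL10, IL4R and IL2RG rose at 5 times, 24 to 336 h, and TNFRSF12A at 5 times, 4 to 168 h. The 14 members that passed at no time and in no window had changes between -0.62 and 0.35 at all of them. At 168 h 18 members had all 3 exposed arrays above all 3 control arrays, 43.9% of members against 17.1% of probe sets, and at 336 h it was 16, or 39% against 14.2%. At 336 h this is more members than the 4 that rose.

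Single calls differed in how firmly they stood, as 58 of the 124 calls on members held in every alternative tried. Fitted on the arrays of a time or window alone, 25 of the 124 calls ended. At 48 h these were IL10, IL16, IL1R1 and IL2RG, at 72 h IL10RB, IL18BP, IL1A, IL1B, IL1R1, IL27RA, TNFRSF1B and TNFSF13, and at 168 h IL7R, TNF and TNFRSF1A. With days of RNA extraction as a block, IL1B and IL34 at 24 h, IL18BP, TNFRSF21 and TNFSF13 at 72 h, and IL11RA, IL18 and IL4R at 336 h no longer passed. Of the late window calls, those of IL18, LTB, IL34 and TNFRSF1A were the weakest under the removal of 1 array, and ended in 13, 11, 10 and 9 of 18 such fits. The middle window fall of IL34, 0.22 on the log2 scale, ended in 11 of 18. The early window call of IL13 ended in 7 of 18, with values of 0.27 to 0.32, and that of IL4 without exposed replicate 3 of 2 h (0.20). The late call of IL13 ended without replicate 1 of the exposed 168 h (0.24), control 168 h (0.25), exposed 514 h (0.21) or control 514 h arrays (0.26), or without control replicate 3 of 514 h (0.26).

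The genes through which these receptors signal were described from lists, and no test compares the lists with other genes. Their counts stand beside rises in 2.07%, 18.2% and 12% of all probe sets at 1 to 4, 24 to 72 and 168 to 514 h. Falls made up 3.41%, 16.9% and 9.88% of all probe sets in the same windows. Of 8 measured adaptor and death signalling genes, 0 passed in limma at 1 to 4 h (0 at an unadjusted p below 0.05), 6 rose at 24 to 72 h and 4 at 168 to 514 h. The adaptor MYD88 rose by 0.54 ± 0.12, FADD, the adaptor of death receptors, by 0.43 ± 0.11, and BID, the caspase-8 substrate, by 0.48 ± 0.08, all at 24 to 72 h. Late, BID rose by 0.51, CASP8 by 0.37 and FADD by 0.33. The median of this list was 0.39 at 24 to 72 h, beside 0.00 over all probe sets.

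Of 5 measured genes for cytokine processing, CASP1, which encodes the caspase that activates IL-1 beta and IL-18, rose by 0.94 ± 0.23 at 24 to 72 h and 0.81 ± 0.23 at 168 to 514 h. GSDMD, which encodes the pore protein gasdermin D that caspase-1 cleaves, rose by 0.62 ± 0.08 and 0.68 ± 0.08. The other 3 did not pass in any window. CASP1 thus rose in a window in which IL18 did not.

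Of 9 measured NF-kB genes, NFKBIA, the inhibitor that NF-kB itself induces, was the only one that rose at 1 to 4 h, by 0.57 ± 0.12 (adjusted p = 0.00175). At 24 to 72 h 5 rose, among them NFKBIB by 0.53, NFKBIA by 0.34 and MAP3K7 by 0.30. At 168 to 514 h IKBKG rose by 0.25 and TAB1 fell by 0.23 on the log2 scale.

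Of 11 measured JAK-STAT genes, 0 passed in limma at 1 to 4 h (1 at an unadjusted p below 0.05), 4 rose and 1 fell at 24 to 72 h, and 5 rose and 2 fell at 168 to 514 h. JAK3, which encodes the kinase bound to the common gamma chain, rose by 0.68 ± 0.12 and 0.70 ± 0.12 in these windows, beside IL2RG at 1.43 ± 0.19 and 1.31 ± 0.19. PTPN6, the phosphatase SHP-1, rose by 0.64 and 0.55, and STAT3, which IL-10 activates, by 0.54 and 0.36. STAT5B fell by 0.37 and 0.40 on the log2 scale. Of 5 measured SOCS genes, which feed back on these receptors, SOCS1 rose by 0.43 ± 0.09 at 1 to 4 h, where SOCS6 fell by 0.32 on the log2 scale. At 24 to 72 h SOCS4 rose by 0.48, SOCS6 by 0.40 and SOCS3 by 0.31, and late SOCS4 rose by 0.25.

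The sham animals give the background of handling without the agent. Averaged over the 9 times, no member differed between sham and control arrays in limma, against 0.0208% of all probe sets, and 4 did at an unadjusted p below 0.05. The largest of these was IL15 at -0.35 (adjusted p = 0.401). Sham and control arrays came from different animals, and with 1 sham array a time in place of 3 control arrays 83 of the 124 calls on members held.

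At 4 times the exposed and control arrays shared days of in vitro transcription, the labelling step. Within each such day that held arrays of both groups, every member called at these times kept its direction. The calls were made on the same arrays. Where all exposed arrays lie on one side of all control arrays, any part of them must keep the direction. The agreement is thus no test of the labelling day. At 168 h, where the days held 2 and 1 arrays of each group, the within-day differences were 3.19 and 1.66 for IL1B, 2.91 and 1.48 for IL2RG, 1.60 and 1.33 for IL10, and 1.98 and 1.83 for IL4R. Exposed replicate 3 at 168 h, the low array for IL1B, IL1A and IL2RG, was the array processed on the second of these days.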

How the data were processed

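Each of 63 pig skin biopsies, in 27 groups, was hybridised to a single Affymetrix Porcine Genome array. The authors deposited RMA values, a log2 signal for every probe set, and the submitters' processing notes name RMA and Partek without versions. Low signals are compressed by RMA, and fold changes of dim genes thereby understate those in RNA. Control probe sets (124 of 24123) were not tested. Over probe sets, differences between arrays of the same group had an SD of 0.231 to 0.583, with a median of 0.335.

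Gene names came from the supplied annotation (10099 probe sets with 1 symbol, 198 with several). All 41 symbols matched RefSeq genes of Sscrofa11.1, used for names and neighbours only. Of the 41 genes 7 had several probe sets.

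A single limma fit (limma 3.58.1, R 4.3.3) took in all arrays, with a mean for each group; it had 36 residual degrees of freedom and a prior of 3.24. Tests were two-sided and adjusted over 23999 probe sets at 0.05. Contrasts were exposed minus control at 9 times, their means over 3 windows, the differences between successive windows, and sham minus control over the 9 times. A sham group of 1 array adds no residual degrees of freedom and is taken to vary like the others. Arrays were processed in 3 periods, each with 1 time of every window, so single times are tied to a period and windows are balanced.

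The members, the gene lists and the tests were chosen with earlier results of these data known. By rule, values are given for TNF, IL1A, IL1B, IL10 and LTB, for the largest changes per time, window and role, and for members whose windows differ in sign; further members were added after their values were seen. Of each signalling list the 3 largest changes past the threshold per window are given. Alternatives were a filter on dim probe sets, quantile normalization, the mean of a gene's probe sets, a muscle covariate, sham arrays as control, the arrays of a comparison alone, labelling (IVT) day, extraction day or replicate number as a block, and leaving out each array. Leaving out each time of a window was added after seeing the data. The fit was also run on simulated data with independent noise on each array. Those data held no effect of animal, period or labelling day, so they cannot show how such effects bear on the calls.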

Additional observations from a re-analysis of the deposited data

Results flagged for a closer look

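The response of 15 members differed between the window of 24 to 72 h and that of 1 to 4 h, by a test of the difference itself in limma (adjusted p below 0.05). This was 36.6% of members, against 16.5% of all probe sets. The later response was higher for IL4R by 1.38, IL2RG by 1.21, IL27RA by 1.10, IL10 by 0.98, IL1R1 by 0.85, IL18BP by 0.77, TNFRSF12A by 0.72 and TNFRSF1B by 0.71. It was also higher for TNFSF13 by 0.58, IL10RB by 0.54, IL16 by 0.49, TNFRSF1A by 0.47 and TNFRSF21 by 0.45. Dimmer probe sets of IL1R1 (0.08, adjusted p = 0.519) and TNFSF13 (0.18, adjusted p = 0.228) did not pass. Those of IL4R (0.28) and TNFRSF12A (0.79) did. IL16 changed by -0.18 in the first window, without passing, and rose by 0.31 in the second. The later response was lower for TNF, with a difference of -0.44, and for IL4, with -0.26. The difference for IL4 ended in 17 fits that left out 1 array, with values of -0.26 to -0.22, and that for TNFSF13 in 6, with values of 0.49 to 0.55.

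Between the windows of 168 to 514 h and 24 to 72 h 4 members differed. This was 9.76% of members, near the 8.45% of all probe sets. IL18 was higher in the late window by 0.77, from -0.31 to 0.46. IL1R1 was lower, with a difference of -0.63, TNFRSF12A with -0.48 and IL11RA with -0.35. Second probe sets of TNFRSF12A and IL1R1 had differences of -0.44 (adjusted p = 0.235) and -0.14 (adjusted p = 0.226), which did not pass. IL11RA changed by 0.06 in the middle window, without passing, and fell by 0.29 on the log2 scale in the late window. The difference for IL11RA ended in 14 fits that left out 1 array, with values of -0.34 to -0.30, and that for IL18 in 12, with values of 0.66 to 0.74. With 3 arrays or 1 array a group, no group was large enough for a search for single outlying arrays.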

How the results depend on the processing

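Under every alternative run, none of the 124 calls on members turned in direction. Counts of members called moved by over 1.5 times as follows; where no cause is named, it was not tested. Fitted on the arrays of a time alone, 0 members passed at 1, 2 and 4 h (in the fit of all arrays 2, 1 and 2), 5 at 48 h (9), 5 at 72 h (13) and 2 at 514 h (1). With sham arrays as the control group, which leaves 1 array in place of 3, 1 passed at 1 h, 0 at 2, 4 and 514 h, 9 at 24 h (14), 1 at 336 h (5), 1 at 1 to 4 h (3), 13 at 168 to 514 h (22) and 0 for the difference of the later windows (4). With labelling day or extraction day as a block 2 passed at 336 h, and with extraction day 2 at 514 h. At 514 h 2 passed after quantile normalization or with probe sets averaged, and 3 with the muscle covariate. Without dim probe sets, where IL7 is not tested, 1 passed at 4 h. Without the 168 h arrays 10 passed in the late window.

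Exposed and control arrays share replicate numbers, which the labels do not tie to animals. Residuals of same-numbered arrays had a mean correlation of 0.27 over probe sets, with 21 of 27 pairs over 0.1, and 20 of 27 exposed arrays correlated best with their own number. With the replicate block 122 of 124 calls held. Under this block 1 member passed at 1 h, 6 at 514 h, 5 at 1 to 4 h and 7 for the difference of the later windows, while other counts stayed within 1.5 times.

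Leaving out 1 array in turn gave 1 to 2 calls at 1 h, 0 to 1 at 2 h, 0 to 2 at 4 h, 12 to 13 at 24 h, 4 to 10 at 48 h, 5 to 14 at 72 h, 13 to 17 at 168 h, 1 to 6 at 336 h and 1 at 514 h. For the windows it gave 1 to 5, 15 to 18 and 17 to 22 calls, and 13 to 15 and 2 to 6 for their differences. At 72 h the low count came without exposed replicate 3, at 48 h without control replicate 2 (4) or exposed replicate 3 (5), and at 1 to 4 h without exposed replicate 3 of 2 h. Of the 124 calls 83 held in all these fits. Values that changed sign had not passed: IL1A was -0.00198 at 1 to 4 h without 4 h and -0.0238 at 24 to 72 h without 72 h, and LTB at 1 to 4 h ranged from -0.0523 to 0.0732 with 1 array left out. Sham minus control could not be run with sham arrays as control, an extraction day block or the replicate block. Dim probe sets near background limit what the values of IL2, IL5, IL6R, IL7, IL12A, IL17A and LTA can show.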
